A study of Mus musculus with 6 samples.

Results

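The insulin-like growth factor (IGF) binding protein genes *Igfbp2*, *Igfbp3*, *Igfbp4*, *Igfbp5*, *Igfbp6* and *Igfbp7* were examined in C2C12 cells, control and *Phf2* KO, after 2 days in differentiation medium. They were chosen by gene symbol, and all 6 were found, each on 1 row, among the 55401 genes of the deposited count matrix. C2C12 is a mouse myoblast line whose cells leave the cell cycle and fuse into myotubes in low-serum medium, here DMEM with horse serum and penicillin-streptomycin. The data hold 3 libraries of polyadenylated RNA from *Phf2* KO cells and 3 from control cells. The KO cells were a sorted pool that had received 4 Cas9 guide plasmids against *Phf2*, a gene for a histone H3K9me2 demethylase, and were not cloned. The control cells, labelled wild type, were a sorted mock pool that had received the Cas9 and ZsGreen plasmid with a guide that has no match in the mouse genome. The replicates are wells of a single experiment, so the p-values measure the spread between wells of 1 pool per group. An effect of *Phf2* loss, of DNA breaks and of the difference between the sorted pools cannot be told apart in this design.

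IGF1 and IGF2 are secreted growth factors that act through the IGF1 receptor, and in muscle they promote both myoblast proliferation and differentiation. The IGF-binding proteins are secreted proteins that hold IGFs outside the cell. Depending on the protein and its site they keep IGF away from its receptor or deliver it there, and proteases such as PAPPA release the IGF by cutting the binding protein. Differentiating myoblasts are known to secrete IGF2 together with IGFBP5. IGFBP7 binds IGFs only weakly and is often counted as a relative of the family.

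In *Phf2* KO cells *Igfbp3* mRNA rose to 1.88-fold of the control level, while *Igfbp5*, which per transcript length was below only *Igfbp7* in this family, fell to 67.1% of it. *Igfbp6* fell slightly and lay at the edge of the threshold. *Igfbp4*, at 79.0% of control, did not pass the test but lay at the edge as well. Of 12 other analyses of the 6 libraries *Igfbp4* passed in 7 and *Igfbp6* in 8. *Igfbp2* did not pass the test, with a value 79.6% of control. *Igfbp7* did not pass it either, with a mean of 102.1% of control. Past an adjusted p of 0.05 there was thus 1 higher member and 2 lower ones, against 6.48% of the 17310 genes tested (3.22% higher and 3.26% lower). All 6 members passed the filter on low counts, with estimated counts between 1423 and 51142 per library. In bulk RNA fewer cells that express a gene and less RNA per cell cannot be told apart.

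The members lie at 5 places in the genome (GENCODE M21, GRCm38). *Igfbp2* (chromosome 1, 72824503 to 72852474, plus strand) and *Igfbp5* (chromosome 1, 72857932 to 72874884, minus strand) are neighbours that face each other tail to tail, with 5458 bp between their ends. *Igfbp3* (chromosome 11, 7206086 to 7213923) is read from the minus strand. Its nearest coding neighbour is *Igfbp1*, 3540 bp away, the binding protein best known from the liver, which was listed at 0 in all 6 libraries. *Igfbp4* is elsewhere on chromosome 11, from 99041244 to 99054392 on the plus strand. *Igfbp6* lies on chromosome 15 (102144362 to 102149511, plus strand) and *Igfbp7* on chromosome 5 (77349240 to 77408041, minus strand). Only *Igfbp7* overlaps other annotated genes. It shares 85 bp with *Polr2b* and contains the antisense gene *Gm34648*, whose count was at most 3 in any library.

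The promoters of *Igfbp3* and *Igfbp5* are shown because these genes had the largest changes among the members, in opposite directions. The sequences are RefSeq's for GRCm38.p6, 120 bases next to the transcription start, 5′ to 3′ in the direction of transcription, at chr11:7213924-7214043 (minus strand) and chr1:72874866-72874985 (minus strand). Capitals mark matches to TATANA, a form of the TATA box read in the direction of transcription, and to CANNTG, the E-box that myogenic factors can bind, which reads alike on both strands.
*Igfbp3*: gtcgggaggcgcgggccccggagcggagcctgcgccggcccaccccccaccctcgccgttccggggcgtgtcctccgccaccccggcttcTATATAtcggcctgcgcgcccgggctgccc
*Igfbp5*: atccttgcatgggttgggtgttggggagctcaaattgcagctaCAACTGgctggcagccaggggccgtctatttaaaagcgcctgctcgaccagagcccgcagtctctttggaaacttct
In the 250 bases before the start, *Igfbp3* held 1 TATANA match at position -30 and 1 CANNTG match at -172, outside the stretch shown. *Igfbp5* held 1 CANNTG match at -77 and no TATANA match. Its stretch holds tatttaaaa, which is not a TATANA match, and other TATA-like forms were not searched for. The GENCODE start of *Igfbp5* (72874884) lies inside the stretch shown, so its positions depend on the start used. The 250 bases held 73.2% G and C for *Igfbp3* and 58.8% for *Igfbp5*. Of 32841 promoters in the table, 66.2% held CANNTG and 16.4% held TATANA in this window, so a match to the first is the common case. These matches are a description.

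The targeted gene was examined first. *Phf2* (ENSMUSG00000038025) was at 37.6 to 41.1 CPM (counts-per-million, scaled by TMM) in *Phf2* KO and at 95.5 to 104.6 CPM in control cells, which gave -1.37 on the log2 scale (adjusted p = 8.32e-09, edgeR's quasi-likelihood test). The estimated counts of a library, which exceed its number of read pairs, summed to between 52526109 and 67502788. Of 12 myotube markers 12 had a negative log2 fold change and 9 fell past the threshold, as did 3.26% of all genes tested. With exactTest 12 of these markers passed and with DESeq2 11. Their summed level was 9334 to 10990 CPM in control and 7493 to 8381 CPM in *Phf2* KO cells. Of 8 markers of cycling or undifferentiated myoblasts none passed the threshold in edgeR's quasi-likelihood test, exactTest or DESeq2, and 0 had an unadjusted p under 0.05, and their summed level was 283.8 to 303.9 CPM in control and 277.7 to 301.3 CPM in *Phf2* KO cells. The sum over 7 endothelial genes was 1.05 to 1.30 CPM in control and 0.192 to 0.876 CPM in *Phf2* KO cells, and over 6 blood cell genes it was 2.47 to 2.61 and 1.79 to 2.55 CPM. Only 2 of the endothelial and 3 of the blood cell genes had counts high enough to be tested, and 0 passed. The sum over 8 fibroblast genes was 22270 to 23960 CPM in control and 22970 to 24660 CPM in *Phf2* KO cells, with 4 of the 7 tested genes at a positive and 3 at a negative log2 fold change. Of these the collagens *Col1a1* (0.20) and *Col1a2* (0.15) rose past the threshold, as did 3.22% of all genes tested. The most abundant, *Col3a1* (-0.11), did not pass in edgeR's quasi-likelihood test. With exactTest 0 genes of the list passed and with DESeq2 3. The sum over 6 adipocyte genes was 29.7 to 37.8 CPM in control and 48.5 to 54.6 CPM in *Phf2* KO cells. Most of it was *Cebpa*, a transcription factor, with means of 32.9 CPM in control and 51.8 CPM in *Phf2* KO cells. *Cebpa* rose with a log2 fold change of 0.65 (adjusted p = 4.64e-04, edgeR's quasi-likelihood test). *Fabp4*, the only other tested gene of the list, averaged 0.435 CPM in control and 0.255 CPM in *Phf2* KO cells and did not pass. Of the genes on these lists, *Thy1*, *Plin1*, *Lep*, *Tie1*, *Adgre1* and *Hbb-bs* had a count of 0 in all libraries, and *Adipoq* in 5 of 6. *Thy1* was the only fibroblast gene at 0. *Dcn* of that list averaged 488.8 CPM in control and 567.2 CPM in *Phf2* KO cells, and *Pdgfra* 42.4 and 46.6 CPM. The part of these marker levels in the results below was not tested.

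Levels were compared between members in TPM (transcripts-per-million, a level per transcript length that the authors' StringTie run scaled within each library). In control cells the order of mean levels was *Igfbp7* (394.9 TPM), *Igfbp5* (310.1), *Igfbp6* (172.9), *Igfbp2* (74.7), *Igfbp3* (37.9) and *Igfbp4* (20.1). Each neighbour in this order was separate, as the lowest library of the higher gene lay above the highest library of the lower gene. In *Phf2* KO cells the order was *Igfbp7* (406.2 TPM), *Igfbp5* (209.6), *Igfbp6* (151.0), *Igfbp3* (71.8), *Igfbp2* (59.9) and *Igfbp4* (15.9). *Igfbp3* and *Igfbp2* had thus exchanged places, in every library of the group. Here the pair was barely separate, with 66.24 TPM in the lowest *Igfbp3* library and 66.15 TPM in the highest *Igfbp2* library.

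**Figure D1:**
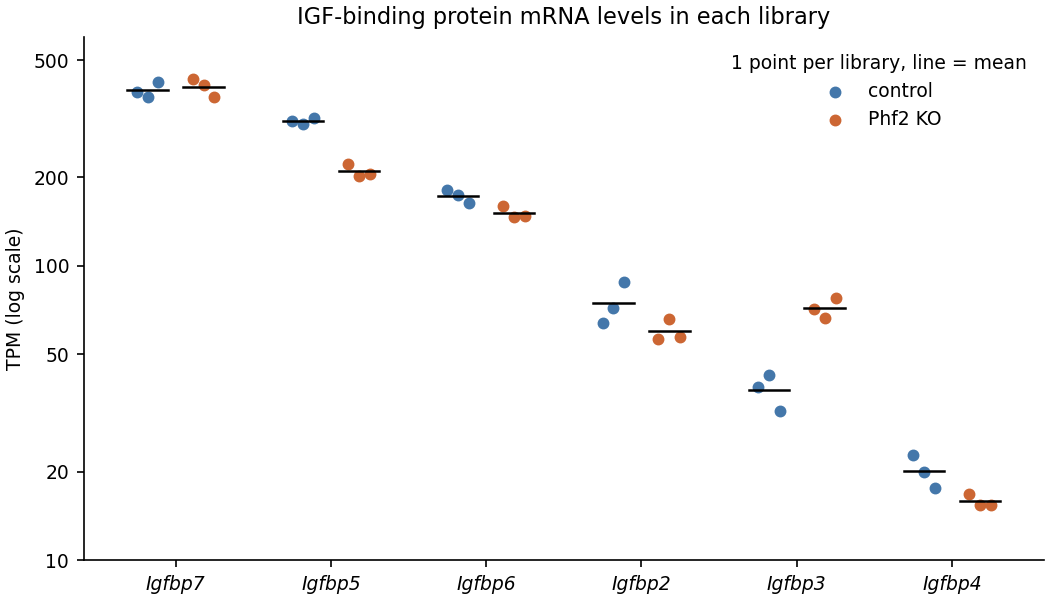
Levels of the 6 genes in TPM on a log scale, with 1 point per library in control (blue) and *Phf2* KO cells (orange) and a line at the mean of 3 libraries. *Igfbp5* sits between 302.6 and 317.7 TPM in control and between 201.8 and 222.1 TPM in *Phf2* KO cells, *Igfbp3* rises from 32.2 to 42.5 TPM to 66.2 to 77.5 TPM, and the points of *Igfbp7* and *Igfbp2* overlap between groups.

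*Igfbp3* (ENSMUSG00000020427) encodes the main IGF carrier of the blood, where it forms a complex with IGF and the acid-labile subunit. In replicates 1, 2 and 3 of the control it was at 45.1, 47.6 and 37.0 CPM, and in those of *Phf2* KO at 82.5, 76.6 and 85.1 CPM. Every *Phf2* KO library lay well above every control library. The control mean was 43.3 ± 5.53 CPM and the *Phf2* KO mean 81.4 ± 4.36 CPM (SD, n = 3 each). On the log2 scale the gene rose by 0.91 (95% interval 0.73 to 1.10, standard error 0.085), with an adjusted p of 1.37e-04 by edgeR's quasi-likelihood test (Benjamini-Hochberg). Among the 557 genes that were higher past the threshold its fold change ranked 27. It passed the threshold in all 12 other analyses of the 6 libraries (adjusted p up to 0.029) and in each of 6 fits without 1 library (up to 0.0037).

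*Igfbp5* (ENSMUSG00000026185) encodes the binding protein most closely tied to muscle differentiation, a conserved protein that also binds extracellular matrix. Control libraries 1, 2 and 3 held 864.4, 846.7 and 878.2 CPM of it, and *Phf2* KO libraries 1, 2 and 3 held 624.5, 559.5 and 552.1 CPM. The groups were far apart relative to their spread, and the control libraries varied by only 1.83% (coefficient of variation). The means were 863.1 ± 15.8 CPM in control and 578.7 ± 39.8 CPM in *Phf2* KO cells (SD, n = 3 each). The log2 fold change of -0.58 had a 95% interval of -0.68 to -0.48 (standard error 0.047) and an adjusted p of 1.57e-05 in edgeR's quasi-likelihood test. Its p-value ranked 10 among the 17310 genes tested, while its fold change ranked 176 among the 565 genes that fell. The call was kept in all 12 other analyses (adjusted p up to 0.0214) and without any 1 library (up to 5.18e-04), but at 67.1% of control the change is under a 1.5-fold limit. Myotube markers fell beside it, with *Myog*, a transcription factor of differentiation, at a log2 fold change of -0.34 and *Ckm*, the muscle creatine kinase, at -0.78. Their part in the fall of *Igfbp5* was not tested.

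*Igfbp6* (ENSMUSG00000023046) encodes a binding protein with a preference for IGF2. The control libraries 1, 2 and 3 were at 93.2, 90.3 and 83.9 CPM, and the *Phf2* KO libraries 1, 2 and 3 at 83.2, 75.1 and 73.5 CPM. The groups did not overlap, but the lowest control library and the highest *Phf2* KO library were less than 1 CPM apart. Control cells averaged 89.1 ± 4.73 CPM and *Phf2* KO cells 77.2 ± 5.20 CPM (SD, n = 3 each). The log2 fold change was -0.21 (standard error 0.058, 95% interval -0.33 to -0.08), and the adjusted p of 0.0492 was just under the threshold (edgeR's quasi-likelihood test). The call ended with exactTest (0.0535), the test that the study's methods name, with limma-voom (0.0859) and in 4 of the 6 fits without 1 library (control replicate 1 or 2 and *Phf2* KO replicate 2 or 3, adjusted p from 0.164 to 0.193).

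*Igfbp4* (ENSMUSG00000017493) encodes a binding protein that mostly inhibits IGF action until PAPPA cleaves it. It was the least abundant member per length, with 40.3, 35.2 and 30.8 CPM in libraries 1, 2 and 3 of the control. In *Phf2* KO libraries 1, 2 and 3 it was at 30.6, 27.1 and 26.3 CPM. All *Phf2* KO libraries were below all control libraries, by less than 1 CPM at the closest, and the means were 35.4 ± 4.75 and 28.0 ± 2.27 CPM (SD, n = 3 each). The log2 fold change was -0.34 (standard error 0.095, 95% interval -0.55 to -0.13, adjusted p = 0.0535, edgeR's quasi-likelihood test), just above the threshold. With the replicate number as a block the log2 fold change was -0.335 and the adjusted p 0.00985 in edgeR, and the count of members past the threshold went from 3 to 4. *Igfbp4* passed also with exactTest (adjusted p = 0.0379), and in edgeR without control replicate 3 (0.0123) and without *Phf2* KO replicate 1 (0.0399). It did not pass with limma-voom (adjusted p = 0.0909) or in the limma fits of TPM (0.247 and 0.238). Nor did it pass in edgeR without control replicate 1 (0.183) or 2 (0.164), or without *Phf2* KO replicate 2 (0.182) or 3 (0.207).

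*Igfbp2* (ENSMUSG00000039323) encodes a binding protein with an integrin-binding RGD motif and is the gene beside *Igfbp5*. It varied most between control libraries, with 38.8, 43.7 and 52.8 CPM in replicates 1, 2 and 3 (coefficient of variation 15.8%). In *Phf2* KO replicates 1, 2 and 3 it was at 34.5, 39.6 and 33.5 CPM, so 1 *Phf2* KO library lay above the lowest control library. The control libraries averaged 45.1 ± 7.11 CPM and the *Phf2* KO libraries 35.9 ± 3.29 CPM (SD, n = 3 each). The log2 fold change was -0.33 with a standard error of 0.11, a 95% interval from -0.58 to -0.08 and an adjusted p of 0.135 in edgeR's quasi-likelihood test. Without control replicate 1 the adjusted p was 0.025, and in the fits without each other library it was 0.103 to 0.362. The value moved with control replicate 3, without which the log2 fold change was -0.205.

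*Igfbp7* (ENSMUSG00000036256) had 201.2, 194.6 and 216.2 CPM in the control libraries 1, 2 and 3. The *Phf2* KO libraries 1, 2 and 3 were at 225.5, 212.3 and 187.1 CPM. The highest and the lowest of the 6 libraries were both *Phf2* KO, and the means of 204.0 ± 11.1 CPM in control and 208.3 ± 19.5 CPM in *Phf2* KO cells (SD, n = 3 each) were close. With a log2 fold change of 0.03 (adjusted p = 0.870, edgeR's quasi-likelihood test) and a standard error of 0.065, the 95% interval was -0.11 to 0.17, which does not reach the size of the change in *Igfbp5* or *Igfbp3*. Its overlapping neighbour *Polr2b* shares 85 bp at the 3′ end, so that reads of both genes there cannot be told apart without strand. Whether the counting used strand is not given in the sources used here.

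**Figure D2:**
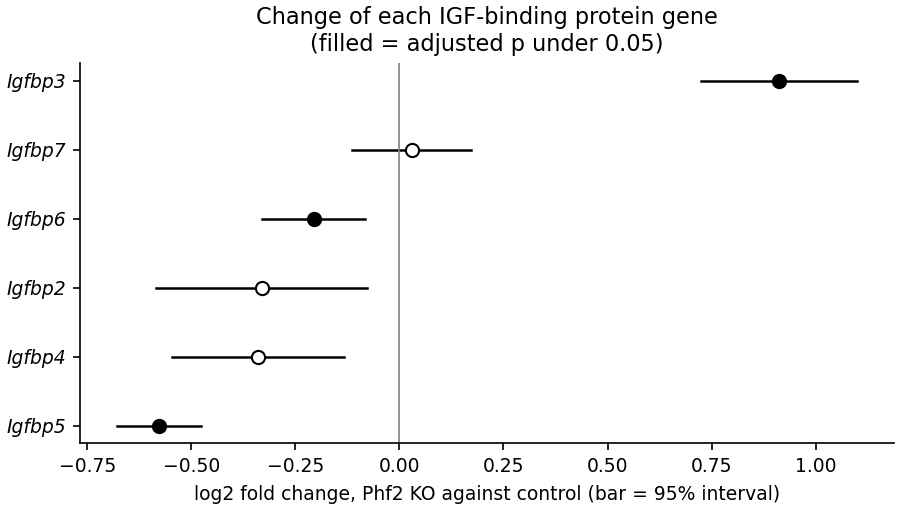
Log2 fold change of each member, *Phf2* KO against control, with 95% intervals from the fit across all 17310 genes, where filled points passed an adjusted p of 0.05. The interval of *Igfbp3* (0.73 to 1.10) and that of *Igfbp5* (-0.68 to -0.48) lie on opposite sides of 0, those of *Igfbp6*, *Igfbp2* and *Igfbp4* lie below 0 and nearer to it, and that of *Igfbp7* spans 0.

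Between groups, 4 of the 6 members did not overlap in CPM (1 higher and 3 lower), which was the case for 25.1% of all genes tested. The median log2 fold change of the 6 members was -0.27, against -0.001 over all genes tested, but the members moved in both directions. *Igfbp6* (-0.21), *Igfbp2* (-0.33) and *Igfbp4* (-0.34) lay near this median. *Igfbp3* (0.91), *Igfbp5* (-0.58) and *Igfbp7* (0.03) lay farther from it.

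To see what these changes did to the make-up of the family, the TPM values of the 6 members were summed in each library. Libraries 1, 2 and 3 of the control reached 1005, 986.2 and 1040 TPM, and those of *Phf2* KO 959.1, 907.5 and 876.4 TPM. Every *Phf2* KO library was below every control library. The mean sum was 1011 ± 27.4 TPM in control and 914.3 ± 41.8 TPM in *Phf2* KO cells (SD, n = 3 each, difference -96.2 TPM, two-sided exact permutation p = 0.1). With 3 libraries against 3 this is the smallest p that the test can give, so no comparison of sums or shares can pass 0.05. The size depended on the unit: in CPM, which is not per length, the sum was 1258 to 1299 in control and 957.5 to 1081 in *Phf2* KO libraries, a difference of -270.0 CPM (exact permutation p = 0.1). Of the difference in TPM *Igfbp5* contributed -100.6 TPM and *Igfbp3* 33.9 TPM.

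The share of *Igfbp5* in the summed level was 30.9%, 30.7% and 30.5% in control replicates 1, 2 and 3. Libraries 1, 2 and 3 of *Phf2* KO had 23.2%, 22.2% and 23.4%, and this separation was wide next to a spread of 0.155 percentage points (SD, n = 3) in control cells. The share of *Igfbp3* was 3.86%, 4.31% and 3.10% in control and 7.46%, 7.30% and 8.84% in *Phf2* KO replicates, without overlap. *Igfbp7* took 39.1 ± 1.25% (SD, n = 3) of the sum in control and 44.4 ± 1.48% (SD, n = 3) in *Phf2* KO cells, also without overlap, while its own level did not pass the test, and a share depends on the other members. For each of these 3 shares the exact permutation p was 0.1 (0.2 adjusted over 8 relations). The shares of *Igfbp2*, *Igfbp4* and *Igfbp6* overlapped between groups (exact permutation p = 0.4, 0.4 and 0.5).

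**Figure D3:**
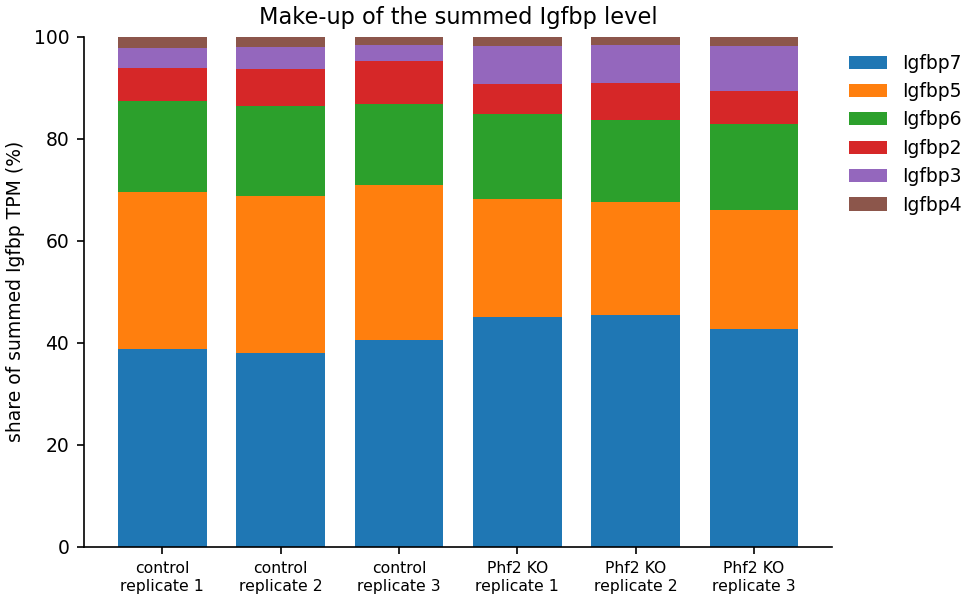
Stacked bars with the share in percent of each member in the summed TPM of the 6 genes, 1 bar per library. The *Igfbp5* band narrows from 30.5% to 30.9% in control libraries to 22.2% to 23.4% in *Phf2* KO libraries, and the *Igfbp3* band widens from 3.10% to 4.31% to 7.30% to 8.84%.

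A ratio of the pair that moved apart, formed after the values were seen and given without a test, was separate between groups. Per 100 TPM of *Igfbp5* there were 12.5, 14.1 and 10.1 TPM of *Igfbp3* in control libraries 1, 2 and 3. The *Phf2* KO libraries 1, 2 and 3 had 32.2, 32.8 and 37.8 TPM. Apart from *Igfbp3* and *Igfbp5*, the sum of the other 4 members was 641.1 to 690.3 TPM in control and 594.0 to 665.5 TPM in *Phf2* KO cells, and here the groups overlapped.

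The ligands and receptors that the binding proteins act on were given by a list of 17 genes, all tested. On this list 1 gene rose and 1 fell past the threshold, which 6.48% of all genes tested passed. *Igf2*, the growth factor that myoblasts secrete, was at 210.5 to 259.9 CPM in control and 205.2 to 257.8 CPM in *Phf2* KO libraries, with overlap, and its log2 fold change was -0.06 (adjusted p = 0.845 in edgeR's quasi-likelihood test). *Igf1* was at 182.6 to 206.7 CPM in control and at 210.7 to 212.2 CPM in *Phf2* KO cells (log2 fold change 0.09, adjusted p = 0.339, edgeR). The genes for the receptors had log2 fold changes of -0.003 for *Igf1r*, 0.01 for *Insr*, the insulin receptor, and 0.05 for *Igf2r*, the clearance receptor of IGF2, and none passed. Relative to the binding proteins, the TPM of *Igf2* divided by the summed TPM of the 6 members was 0.148, 0.143 and 0.120 in libraries 1, 2 and 3 of the control, and 0.141, 0.134 and 0.157 in those of *Phf2* KO. These ratios overlapped (exact permutation p = 0.7), and without control replicate 3 the difference of 0.00651 changed sign. The ratio depended on the unit: with CPM in place of TPM, which weighs the long *Igfbp5* transcript more, the difference was 0.0398 (exact permutation p = 0.1, the smallest the test can give), with the higher ratio in *Phf2* KO cells.

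Below the receptor, *Irs1*, an adaptor of the insulin and IGF1 receptors, rose from 277.4 to 316.8 CPM in control to 326.7 to 341.9 CPM in *Phf2* KO cells (log2 fold change 0.20, adjusted p = 0.0316, edgeR's quasi-likelihood test). It did not pass with exactTest or the TPM fits, nor in 4 of 6 fits without 1 library (control replicate 1 or 2, *Phf2* KO replicate 2 or 3, adjusted p up to 0.182). *Akt2*, a kinase of the pathway, fell from 192.2 to 197.4 CPM to 164.7 to 167.2 CPM (log2 fold change -0.22, adjusted p = 0.0049), and passed without any 1 library but not in the limma fits of TPM (adjusted p up to 0.115). Its relative *Akt1* had a log2 fold change of -0.09 (adjusted p = 0.245), *Pik3r1*, a regulatory subunit of PI3-kinase, 0.08 (0.278) and the adaptor *Shc1* 0.13 (0.0808), all in edgeR's quasi-likelihood test. *Grb10*, an adaptor that restrains the receptors, had the largest log2 fold change of the list at -1.10 (standard error 0.34, adjusted p = 0.0760, edgeR), from 1.07 to 2.04 CPM in control and 0.590 to 1.01 CPM in *Phf2* KO cells. It did not pass here, passed in 2 of 12 other analyses (DESeq2 and the CPM filter, adjusted p from 0.0461) and without control replicate 3 (0.0389), and had the opposite sign in 1 of the 12. The median of the 17 genes was 0.05 on the log2 scale, against -0.001 over all genes.

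Of 14 genes for proteases that cut IGF-binding proteins and for inhibitors of those proteases, 13 were tested (median log2 fold change -0.07). Among the 13 tested 1 passed the threshold, upward, where 6.48% of all genes tested passed it (3.22% upward). *Mmp7* was at 0 in all libraries. *C1s1*, a complement protease able to cleave IGFBP5, rose from 341.7 to 374.0 CPM to 385.9 to 416.4 CPM (log2 fold change 0.18, adjusted p = 0.0360, edgeR's quasi-likelihood test), but the call held in only 1 of 6 fits without 1 library, that without control replicate 1 (adjusted p up to 0.185), and not with exactTest. *Ctsd*, the lysosomal protease cathepsin D, had a log2 fold change of -0.16 (adjusted p = 0.0525) and *Htra1*, a secreted serine protease with an IGFBP domain of its own, one of -0.16 (adjusted p = 0.126). With the replicate number as a block both passed, at 0.0405 and 0.025 in edgeR, and the list then held 1 higher and 2 lower genes. The gelatinase *Mmp2* (log2 fold change 0.06), *Adamts1* (-0.03) and the complement protease *C1ra* (-0.07) did not pass. *Pappa*, the protease of IGFBP4 and IGFBP5, was expressed at a low level, with 6.70 to 9.24 CPM in control and 6.55 to 8.76 CPM in *Phf2* KO cells, and did not pass either.

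The third list held 12 genes that share the IGFBP domain or partner the binding proteins. Among the 9 tested 2 rose past the threshold, where 3.22% of all genes tested did. *Igfbpl1* was at 0 like *Igfbp1*, and *Igfals*, which encodes the acid-labile subunit, was under 0.7 CPM in every library. Both genes that rose belong to the CCN family of matricellular proteins. *Ccn2* went from 275.9 to 312.3 CPM to 418.3 to 452.8 CPM (log2 fold change 0.57, adjusted p = 3.22e-05, edgeR's quasi-likelihood test) and *Ccn3* from 29.8 to 41.9 CPM to 53.0 to 62.2 CPM (0.68, adjusted p = 0.0205). *Ccn3* lost the call in 3 of the 6 fits without 1 library (control replicate 2, *Phf2* KO replicate 2 or 3, adjusted p up to 0.0957). The related *Ccn1* (0.22), *Ccn4* (0.09), *Ccn5* (-0.15), *Crim1* (0.17) and *Kazald1* (-0.15) did not pass. *Crim1* and *Ccn1* passed without control replicate 3.

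**Figure D4:**
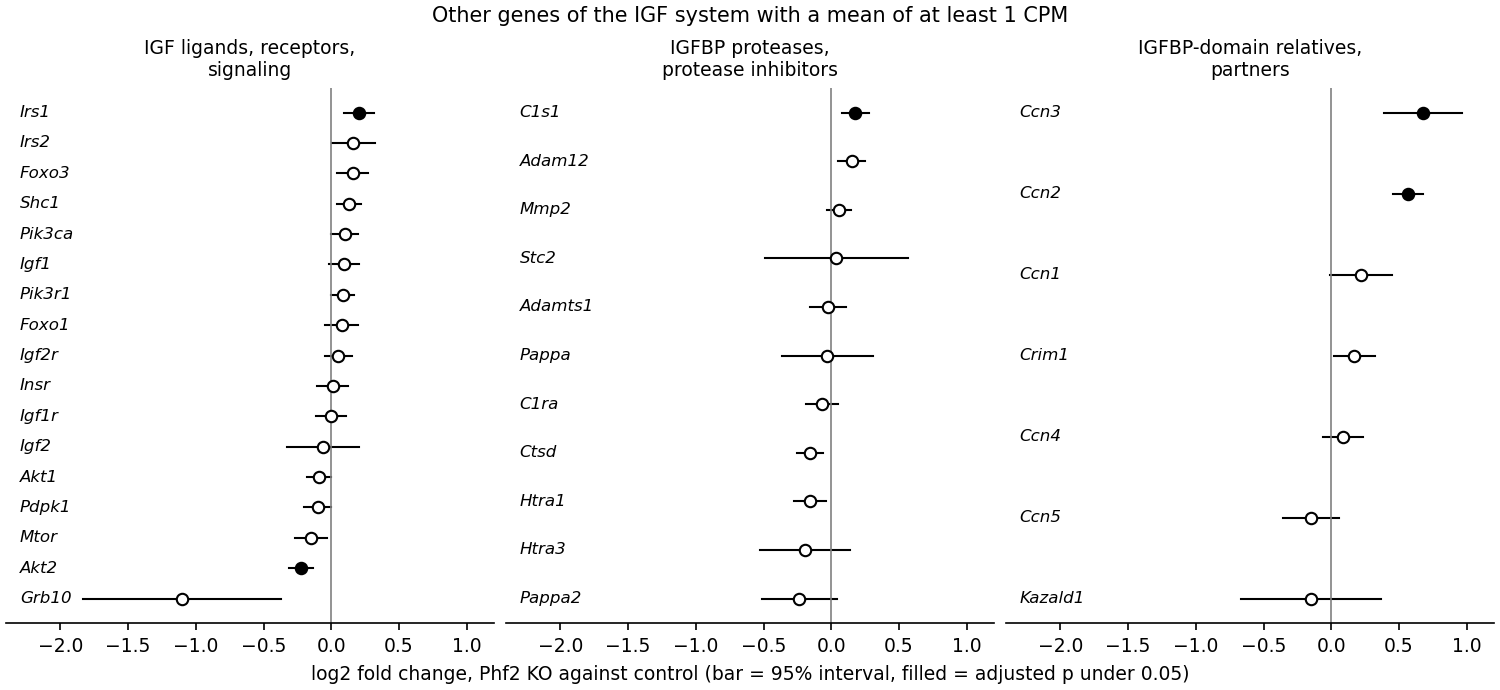
Log2 fold change, *Phf2* KO against control, with 95% intervals for the tested genes of the 3 lists with a mean of at least 1 CPM, in a panel per list, where filled points passed an adjusted p of 0.05. The filled points are *Akt2* (-0.22) and *Irs1* (0.20) in the ligand, receptor and signaling panel, *C1s1* (0.18) in the protease panel, and *Ccn2* (0.57) and *Ccn3* (0.68) in the panel of relatives, and the open point farthest from 0 is *Grb10* (-1.10).

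Finally, the genes whose levels were most like those of each member were listed by Pearson's r of log2(CPM + 1) over the 6 libraries, among 10924 genes that averaged 5 CPM or more. The 6 points fall into 2 groups and genes of a library share its depth and preparation, so the values are a description. The closest gene was *Sars2* for *Igfbp5* (r = 0.996), *Tubgcp5* for *Igfbp3* (0.995), *Ifi207* for *Igfbp6* (0.996), *Gm38403* for *Igfbp4* (0.994), *Vat1* for *Igfbp2* (0.989) and *Tmem209* for *Igfbp7* (0.993). *Myog* was the third closest gene to *Igfbp6* (0.989), and *Ctsd* the third closest to *Igfbp2* (0.987). Pearson's r does not measure the size of a change. The log2 fold change was 0.10 for *Tubgcp5* (adjusted p = 0.561, edgeR's quasi-likelihood test) and 0.91 for *Igfbp3*. For *Sars2* it was -0.36 (adjusted p = 0.109, same test) and for *Igfbp5* -0.58.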

How the data were processed

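Polyadenylated RNA of 3 control and 3 *Phf2* KO libraries was measured, with groups and replicate numbers taken from the sample titles. The authors aligned paired-end reads to mm10 with HISAT2 and ran StringTie (versions and annotation not given in the sources used here). The deposited matrix holds their estimated counts per gene as whole numbers without scaling. Where a gene had a single transcript and its count reached 500, the covered bases per count had a median of 74.98 to 74.99, so the values follow coverage and are not tallies of reads. The authors also deposited TPM, a signal normalised to transcript length and library, in 1 table per library, under reference genes and again under assembled loci, and was taken from the reference genes. The deposited coverage served only to find the unit of the counts.

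The counts went into edgeR 4.0.16 under R 4.3.3: filterByExpr (minimum count 10), TMM, and the quasi-likelihood test with robust dispersions and Benjamini-Hochberg adjustment over 17310 genes. The threshold was an adjusted p of 0.05 with no fold limit, and a prior count of 0.125 entered the log2 fold changes. Standard errors are the log2 fold change divided by the root of the F statistic. The procedure was also run on simulated counts drawn without a pairing of replicates, so that run cannot show what the pairing described below does to the calls. Sums, shares and ratios of TPM were compared by two-sided exact permutation tests. Alternatives were exactTest, DESeq2 1.42.0, limma-voom (limma 3.58.1), other scalings and filters, counts divided by 4, limma on log2(TPM + 1) and log2(TPM + 0.1), stricter thresholds, the replicate number as a block, and leaving out each library. With exactTest 537 genes were higher and 592 lower past the threshold. The study reported fewer in each direction with the test of that name, so its calls were not reproduced here.

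The replicate numbers carry a pairing: over 10924 genes that averaged 5 CPM or more, deviations from the group mean correlated between libraries of the same number (0.29, 0.374 and 0.205) and were at most 0.038 otherwise. The study's methods name no pairing, so the block was an alternative. The genes named are *Phf2*, the 6 members, *Igf1*, *Igf2*, *Igf1r* and *Igf2r*, of each list up to 5 genes past the threshold with the largest change and up to 5 others with the highest mean CPM, and the genes most like each member. *Insr*, *Grb10*, *Pappa*, *Igfals*, *Adipoq*, *Polr2b*, *Gm34648* and genes at 0 were named outside this rule after their values were seen. The members, lists and tests were chosen with earlier results of these data known. Figures were drawn with Python 3.11.15.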

Additional observations from a re-analysis of the deposited data

How the results depend on the processing

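*Phf2*, *Igfbp3* and *Igfbp5* kept their direction and their side of an adjusted p of 0.05 in all 18 other fits each, but *Igfbp5* is lost with a 1.5-fold limit. *Igfbp2* passed the threshold with DESeq2 (log2 fold change -0.33, adjusted p = 0.0169), and its log2 fold change without 1 library ran from -0.43 to -0.205. *Igfbp4* passed with exactTest (-0.34), DESeq2 (-0.34), upper quartile (-0.35) and no filter (-0.34). It passed also with the CPM filter (-0.34), the replicate block (-0.335) and counts divided by 4 (-0.34). It did not pass with DESeq2 size factors, library size alone, limma-voom or the TPM fits. Without 1 library its log2 fold change ran from -0.43 to -0.24, and 2 of these 6 fits passed. *Igfbp6* did not pass with exactTest (-0.21), limma-voom (-0.21) or limma on log2(TPM + 1) (-0.19) and log2(TPM + 0.1) (-0.195), with -0.26 to -0.17 without 1 library. *Igfbp7* turned sign without control replicate 2 (-0.003) and without *Phf2* KO replicate 1 (-0.03), in a range of -0.03 to 0.10. The number of members past the threshold was 5 with DESeq2 and 1 with a 1.5-fold limit, and 2 to 4 without 1 library. For the 17 ligand, receptor and signaling genes it went from 2 to 1 with exactTest, 4 with DESeq2, 0 in both TPM fits, 1 at an adjusted p under 0.01, 0 with the fold limit and 1 to 4 without 1 library. For the proteases it went from 1 to 0 with exactTest, both TPM fits, the stricter p and the fold limit, to 2 with DESeq2, upper quartile, library size alone, no filter, the CPM filter and counts divided by 4, to 3 with the replicate block, and to 0 to 2 without 1 library. For the IGFBP-domain relatives it went from 2 to 1 without a filter, in both TPM fits, at the stricter p and with the fold limit, and to 1 to 4 without 1 library. With CPM in place of TPM the differences in share turned sign for *Igfbp2* (0.0437 percentage points), *Igfbp4* (0.000795) and *Igfbp6* (0.684), since CPM is not per length and *Igfbp5* then weighs more. The *Igf2* ratio turned sign without control replicate 3 (-0.002, range to 0.012). With CPM the ratio differed by 0.0398 and the sum by -270.0 CPM, and without 1 library the sum differed by -119 to -77.2 TPM. The replicate block changed no call of a member other than *Igfbp4*. Where no construction is named, the cause was not tested. Each member had at least 1423 estimated counts per library.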
